A study of Mus musculus with 4 samples.

Results

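The granins and the prohormone processing enzymes were measured as 10 genes, Pcsk1, Pcsk2, Pcsk1n, Scg5, Chga, Chgb, Scg2, Scg3, Vgf and Cpe, out of 32285 genes counted in hippocampal nuclei. The members were taken by gene symbol, and the group was chosen by a result of these data: Pcsk1 had a lower count in CA1 pyramidal neurons of mutant mice. The CA1 comparison of the genotypes is therefore given as a description, with no test, and so is Pcsk1 over all nuclei, which contain those neurons. Peptide hormones and neuropeptides are made as larger precursors, packed with granins into dense-core vesicles, and cut there at paired basic residues by the convertases encoded by Pcsk1 and Pcsk2. Carboxypeptidase E then trims the exposed basic residues from the ends of the peptides. Proteins of the granin family help to form the granule core and the vesicle, and several are themselves cut into peptides. In the hippocampus this route handles neuropeptides of interneurons and principal cells and a part of secreted growth factors.

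Hippocampi of both hemispheres were taken from wild-type (WT) mice and from mice heterozygous for the R87C substitution in Cyfip2 (Cyfip2+/R87C knock-in, KI), on a C57BL/6N background at 28 postnatal weeks. Each genotype had 2 mice, and 1 mouse gave 1 library of 3′-end counts, in which a unique molecular identifier (UMI) stands for 1 counted transcript. The mutant allele was carried by every cell of the body, so that effects within a cell class and effects from other cells or from seizures cannot be told apart. The treatment field of KI replicate 2 names R88C, but its title places it among the KI mice, where it was kept. All 4 libraries had the same batch label.

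The libraries held 73009975 to 80913580 UMIs, and 52632 of 55640 barcodes were kept as nuclei. Between 142 and 178 barcodes of a library also occurred in another library. Classes were clusters named by marker genes, with the members left out of the genes used for clustering, and 17.3% of nuclei stayed in unnamed clusters. The named classes carried their markers: in dentate gyrus (DG) granule neurons 8 of 8 markers were raised, in CA1 pyramidal neurons 6 of 7, in CA3 pyramidal neurons 7 of 7 and in oligodendrocytes 8 of 8. Oligodendrocytes came from one cluster with 2017 and 1222 WT nuclei but 28 and 78 KI nuclei, and from another with 44 and 16 WT nuclei but 2091 and 785 KI nuclei. The inhibitory class joined clusters that differed in size between libraries, and so did the subicular or cortical excitatory class. Cyfip2 itself was at 182 and 181 CPM (UMIs scaled to a fixed class total) in WT against 173 and 171 in KI, and counts of this kind cannot show the substitution.

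Pcsk1 (chromosome 13, 75089826 to 75134861, plus strand, GRCm38) encodes prohormone convertase 1/3. Rankings of the members between classes cover the named classes only. In WT libraries the Pcsk1 level was highest in subicular or cortical excitatory neurons, at 53.0 and 58.3 CPM, and in mossy cells, at 42.2 and 64.6 CPM, and these ranges overlapped. The unnamed cluster led by Npsr1 and Tshz2 had 55.1 and 75.5 CPM in WT. Inhibitory neurons (28.4 and 26.5 CPM), CA3 (24.7 and 27.3 CPM) and CA1 pyramidal neurons (24.7 and 26.6 CPM) overlapped with each other below them. Cajal-Retzius cells followed at 16.6 and 23.6 CPM and oligodendrocytes at 10.4 and 11.7 CPM. DG granule neurons were close to the bottom, at 7.25 and 7.12 CPM, within the range of oligodendrocyte precursor cells (OPC, 6.402 to 9.64 CPM) and overlapping that of astrocytes (6.80 and 7.25 CPM). The 5 tested neuron classes had more UMIs per nucleus than glia, whereas Cajal-Retzius cells, at a median of 1630 and 1847 UMIs in WT, were below astrocytes and OPC, so values per nucleus were also taken. WT mossy cells had 0.368 and 0.582 Pcsk1 UMIs per nucleus, CA1 neurons 0.138 and 0.176, DG granule neurons 0.0301 and 0.0328, and oligodendrocytes 0.0170 and 0.0194.

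**Figure D1:**
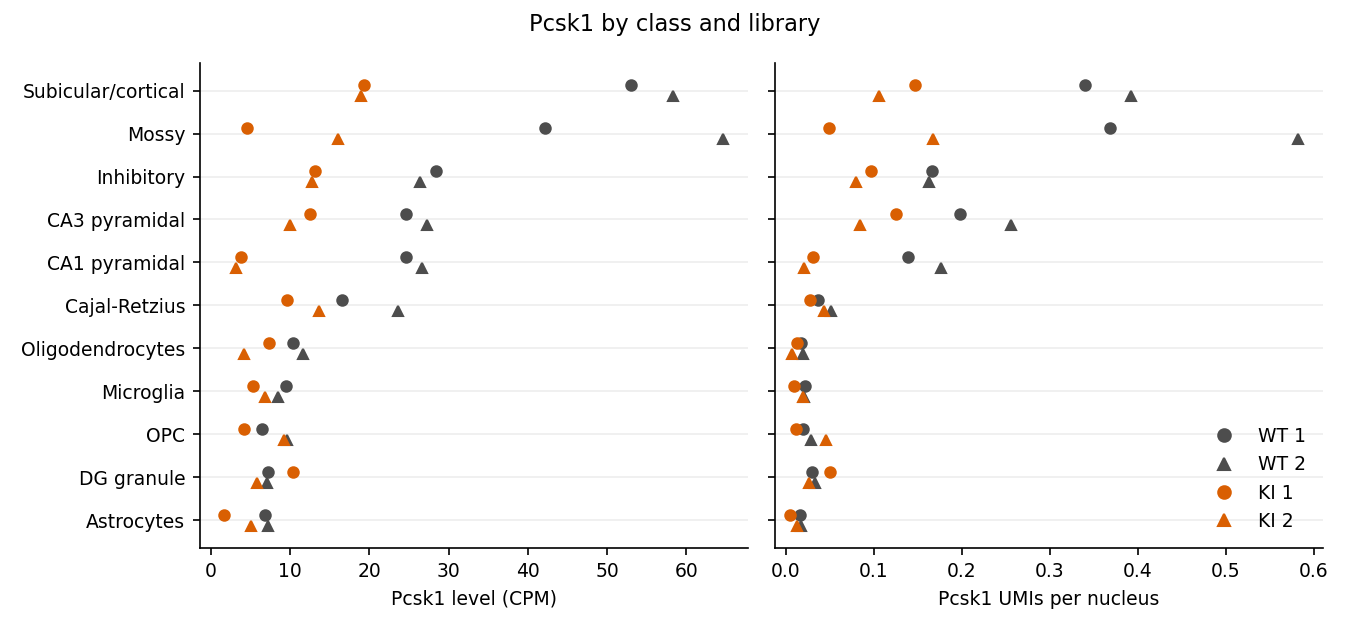
Pcsk1 in each cell class and library, as CPM of the class sum and as UMIs per nucleus; each point is 1 library of 1 mouse, WT or KI. The KI points lie below the WT points in CA1 (3.81 and 3.23 against 24.7 and 26.6 CPM), CA3, inhibitory, subicular or cortical and mossy neurons, whereas in DG granule neurons they lie on both sides of the WT points (10.4 and 5.88 against 7.25 and 7.12 CPM).

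The other convertase and the helpers of both enzymes were spread differently. Pcsk2 (chromosome 2, plus strand) encodes prohormone convertase 2. Among the named classes its WT level was highest in mossy cells (942 and 969 CPM) and then in CA3 neurons (902 and 793 CPM). The CA3 values overlapped with those of subicular or cortical excitatory neurons (782 to 838 CPM). It was lowest in astrocytes (149 and 125 CPM), and 4 of 5 tested neuron classes were above every glial class per nucleus in every library. Scg5 encodes 7B2, the chaperone that prohormone convertase 2 needs for its maturation. Its WT level was highest in Cajal-Retzius cells (255 and 171 CPM) and inhibitory neurons (189 and 204 CPM), whose ranges overlapped, and was 105 and 102 CPM in DG granule neurons. Pcsk1n (chromosome X) encodes proSAAS, an inhibitor of prohormone convertase 1/3. Per nucleus it was lower in WT oligodendrocytes (0.345 and 0.326 UMIs) than in CA1 (0.397 and 0.435 UMIs) and DG granule neurons (0.468 and 0.467 UMIs). Its CPM, which is relative to the total of the class, was higher in oligodendrocytes (211 and 196) than in CA1 neurons (70.8 and 65.8).

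Among the granins, Chgb, which encodes the acidic core protein chromogranin B, had its highest WT level per nucleus among CA1, CA3 and DG neurons in CA3 (1.01 and 1.05 UMIs). Chga (chromogranin A) had 0.189 and 0.255 UMIs per nucleus in CA3 and 0.0587 and 0.0509 in oligodendrocytes. Scg2 (secretogranin II, the precursor of secretoneurin) was at 0.219 and 0.219 UMIs per nucleus in DG granule neurons against 0.138 and 0.164 in oligodendrocytes. Vgf, whose product is cut into several peptides and whose transcript is known to follow neurotrophins and activity, was at 0.0654 and 0.0812 UMIs per nucleus in DG granule neurons and at 0.0592 and 0.0929 in oligodendrocytes, so the ranges overlapped. Scg3 (secretogranin III, which links chromogranin A to the vesicle membrane) and Cpe had their highest CPM in astrocytes. Per nucleus, WT Cpe was highest in CA3 (4.92 and 5.64 UMIs), followed by mossy cells (4.47 and 4.55) and astrocytes (3.67 and 4.38). Astrocytes had 239 and 258 CPM of Scg3 in WT and 279 and 277 CPM in KI. Cpe there was at 1595 and 1919 CPM in WT against 2497 and 1356 in KI, and 0 of 5 tested neuron classes were above every glial class per nucleus in all 4 libraries for either gene. For Cpe, CA3 was above astrocytes in every library but KI replicate 1 (5.92 against 6.90 UMIs per nucleus).

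The lower Pcsk1 by which the group was chosen was seen in both KI libraries. CA1 pyramidal neurons of WT mice held 337 and 307 Pcsk1 UMIs, or 24.7 and 26.6 CPM, and those of KI mice 49 and 38 UMIs, or 3.81 and 3.23 CPM. The WT mean was 25.6 ± 1.35 CPM (SD, n = 2) and the KI mean 3.52 ± 0.411 CPM (SD, n = 2), and the fitted log2 fold change was -2.77. The KI level in CA1 was below the KI level in oligodendrocytes (7.41 and 4.18 CPM), whereas the WT level in CA1 was above the WT level there. Per nucleus, KI CA1 neurons were above KI oligodendrocytes in both libraries, at 0.0303 and 0.0210 against 0.0123 and 0.00695 UMIs. Taking the UMIs per oligodendrocyte nucleus of the same library off those per CA1 nucleus moved the ratio of KI to WT from 0.163 to 0.115. The summed level of the 7 CA1 markers in these neurons was 3457 and 3272 in WT against 3531 and 2614 CPM in KI. The 7 astrocyte markers in these sums were at 52.8 and 49.7 CPM in WT against 26.6 and 31.3 in KI. The 7 CA3 markers were at 369 and 375 in WT against 297 and 331 CPM in KI, whereas the 8 fibroblast markers were higher (33.5 and 35.1, then 52.1 and 47.7 CPM). The part of these shifts in the Pcsk1 value was not tested. Over all nuclei Pcsk1 was at 20.8 and 27.3 CPM in WT against 10.2 and 9.93 in KI. In that sum, fewer nuclei of a class and less RNA per nucleus cannot be told apart.

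**Figure D2:**
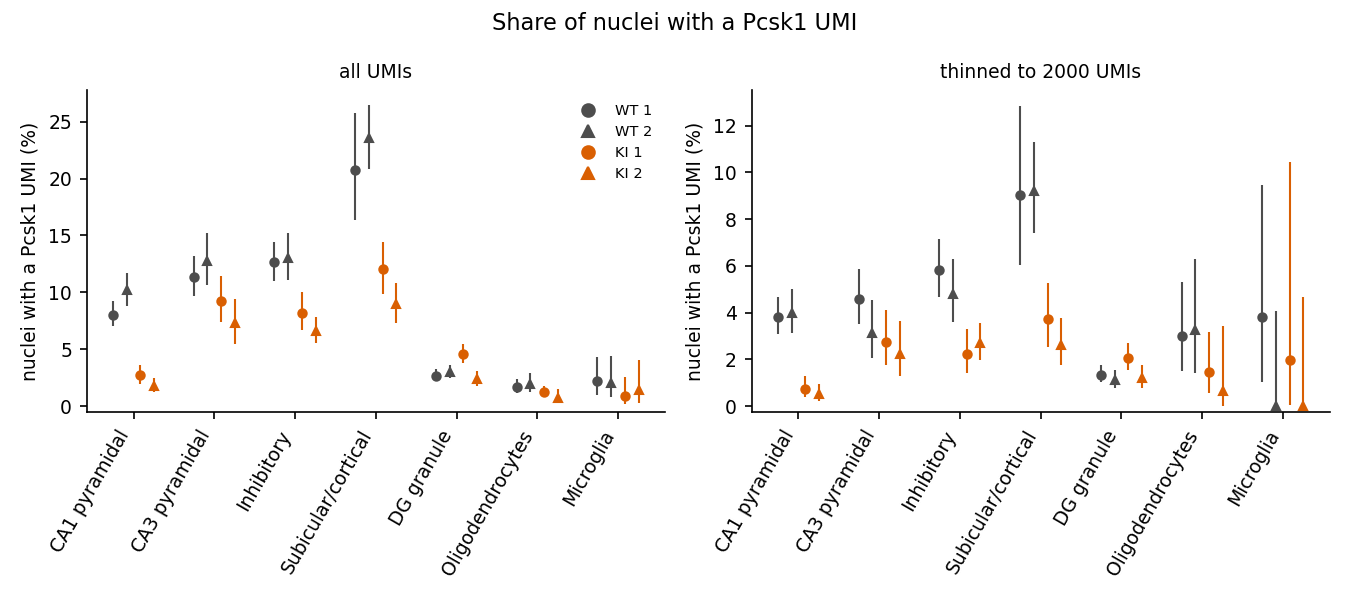
Share of nuclei with at least 1 Pcsk1 UMI (percent, with exact 95% binomial intervals that cover counting error only) by class and library, from all UMIs and after thinning each nucleus to 2000 UMIs. In CA1 the shares were 8.05% and 10.2% in WT and 2.72% and 1.77% in KI, and after thinning 3.83% and 4.00% in WT and 0.745% and 0.505% in KI.

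The share of CA1 nuclei with a Pcsk1 UMI rests on the same UMIs that chose the group and adds no support to it. In WT it was 196 of 2435 nuclei (8.05%, exact 95% interval 6.999 to 9.20%) and 178 of 1744 (10.2%, 8.82 to 11.7%). In KI it was 44 of 1618 (2.72%, 1.98 to 3.63%) and 32 of 1808 (1.77%, 1.21 to 2.49%). Nuclei with at least 2 Pcsk1 UMIs numbered 62 and 53 in WT and 4 and 2 in KI. RNA free in the droplets gives UMIs in nuclei that do not use a gene, and oligodendrocytes were taken as a floor for it. Their shares were 1.70% and 1.94% in WT and 1.23% and 0.695% in KI, with a median of 1358 to 1488.5 UMIs per nucleus against 5009 to 6991 in CA1. Thinned to 2000 UMIs, the KI shares in CA1 (0.745% and 0.505%) were at or below those of the oligodendrocytes that reached this depth (1.46% and 0.625%, from 6 of 410 and 1 of 160 nuclei, with exact 95% intervals of 0.539 to 3.16% and 0.0158 to 3.43%). With each nucleus gated on its own markers the thinned KI shares were 1.62% and 0.958% in CA1 and 1.504% and 0.810% in oligodendrocytes. How much of the Pcsk1 left in KI CA1 nuclei was free RNA was not tested. Thinning left out 7 to 35 CA1 nuclei per library but 703 to 1709 oligodendrocytes.

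CA3 pyramidal neurons, whose sums the stated choice of the group did not use, had 24.7 and 27.3 CPM of Pcsk1 in WT and 12.5 and 9.98 CPM in KI. The choice rested on the same gene in the same mice, so the CA3 test is not independent of it. Both KI libraries were below both WT libraries, and the log2 fold change was -1.11 ± 0.19 (SE), with an edgeR adjusted p of 0.0327. Of the 10 members, 1 was called lower in CA3 and 0 higher, beside 0.704% of all 15205 genes called lower, 1.37% called higher and 2.07% in either direction. DESeq2 gave an adjusted p of 0.00681 for Pcsk1 there. Without WT replicate 2 the adjusted p was 0.0521, and with each nucleus gated on its own markers it was 0.0838, at a log2 fold change of -1.81. Taking off the oligodendrocyte UMIs moved the ratio of KI to WT per nucleus from 0.459 to 0.453. Pcsk1 in oligodendrocytes themselves was at 10.4 and 11.7 CPM in WT against 7.41 and 4.18 in KI (log2 fold change -0.72 ± 0.38, edgeR adjusted p = 0.415), and its part in the CA3 result was not tested further. In the CA3 sums the 7 CA1 markers were at 441 and 405 in WT against 602 and 572 CPM in KI, and the 7 astrocyte markers at 74.1 and 67.6 CPM in WT against 33.1 and 46.8 in KI, with 0 of either list at 0 in any library. The 7 CA3 markers were at 3511 and 3393 in WT against 2956 and 3215 CPM in KI, and the part of these shifts in the Pcsk1 value was not tested.

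In inhibitory, subicular or cortical excitatory and mossy neurons the KI libraries lay below the WT libraries for Pcsk1, without passing the edgeR threshold or without a test. Inhibitory neurons had 28.4 and 26.5 in WT against 13.2 and 12.8 CPM in KI (log2 fold change -0.99 ± 0.17, adjusted p = 0.0940 by edgeR and 0.0261 by DESeq2). Subicular or cortical excitatory neurons had 53.0 and 58.3 CPM in WT against 19.3 and 18.9 in KI (log2 fold change -1.48 ± 0.19, adjusted p = 0.580 by edgeR and 0.0206 by DESeq2). In the inhibitory sums the 8 markers of the class itself were at 8368 and 10446 in WT against 7972 and 7511 CPM in KI. The 7 CA3 markers there were at 1160 and 1267 in WT against 836 and 924 CPM in KI, and the 6 Cajal-Retzius markers at 444 and 523 CPM in WT against 372 and 323 in KI, with 1 of them at 0 in WT replicate 2. The 7 markers of the subicular or cortical class were lower in its KI sums as well, at 4567 and 3606 in WT against 2833 and 3457 CPM in KI, and the part of these shifts in the Pcsk1 values was not tested. The unadjusted edgeR p there was 0.000142, and 0 of 15014 genes passed after adjustment. Mossy cells, with 36 to 76 nuclei per library and no test, had 42.2 and 64.6 in WT against 4.59 and 16.1 CPM in KI. In DG granule neurons Pcsk1 was at 7.25 and 7.12 CPM in WT against 10.4 and 5.88 in KI, and the groups overlapped (log2 fold change 0.34 ± 0.30, edgeR adjusted p = 0.495). Without KI replicate 2 the log2 fold change was 0.70 (adjusted p = 0.000606), and without KI replicate 1 it was -0.19 (0.592). The share of DG granule nuclei with a Pcsk1 UMI was 2.69% and 3.01% in WT and 4.59% and 2.35% in KI, against the oligodendrocyte shares given above.

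In DG granule neurons 4 of the 10 members were called higher in KI and 0 lower, beside 4.8% of all 16339 genes called higher, 4.83% called lower and 9.63% in either direction. The 4 were Pcsk2, Chgb, Scg2 and Vgf, which are a convertase and 3 granins. Pcsk2 was at 426 and 416 in WT against 704 and 735 CPM in KI (log2 fold change 0.91 ± 0.079 SE, edgeR adjusted p = 0.00347). Chgb, in the same order of genotypes, was at 86.0 and 84.5 CPM, then 139 and 152 CPM (0.90 ± 0.093, adjusted p = 0.00487). Scg2 had the largest rise of the members in this class (52.7 and 47.5 CPM, then 103 and 104 CPM, log2 fold change 1.18 ± 0.11, adjusted p = 0.00382). In these 3 genes the KI libraries stood well above both WT libraries, and the WT pairs were close to each other. Vgf, at 15.7 and 17.6 CPM in WT against 26.1 and 23.7 in KI, passed with less room (0.72 ± 0.15, edgeR adjusted p = 0.0346). Its WT UMIs per nucleus overlapped those of oligodendrocytes, so Vgf is not read as a change within DG granule neurons. By library totals in place of TMM factors its adjusted p was 0.0508, and by nuclei gated on their own markers 0.389. With WT replicate 1 or WT replicate 2 left out, Pcsk2 and Scg2 still passed, and Chgb (adjusted p = 0.0779 and 0.0836) and Vgf (0.386 and 0.258) did not.

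The other members of DG granule neurons did not pass by edgeR, whereas DESeq2 called 5 members, Pcsk1n among them, beside 10.5% of the 16547 genes to which it gave an adjusted p. Pcsk1n was at 113 and 101 in WT against 121 and 153 CPM in KI (log2 fold change 0.49, adjusted p = 0.0602 by edgeR and 0.0419 by DESeq2). Scg5 was at 105 and 102 CPM in WT against 117 and 133 in KI (0.41, adjusted p = 0.0542). Scg3 had a log2 fold change of 0.30 (adjusted p = 0.168), and Chga and Cpe were near 0, at 0.05 and 0.07. The fitted log2 fold change was positive for 10 of 10 members, with a median of 0.45, beside 49.9% of all genes and a median of -0.001. Scaling by library totals took the median of all genes in this class from -0.001 to -0.14 and the share of calls that were higher from 49.8 to 33.6%. At a clustering resolution of 1.0 DG granule neurons split largely by genotype, into a cluster with 3948 and 2962 WT and 206 and 820 KI nuclei and a cluster with 166 and 168 WT and 2194 and 1297 KI nuclei.

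**Figure D3:**
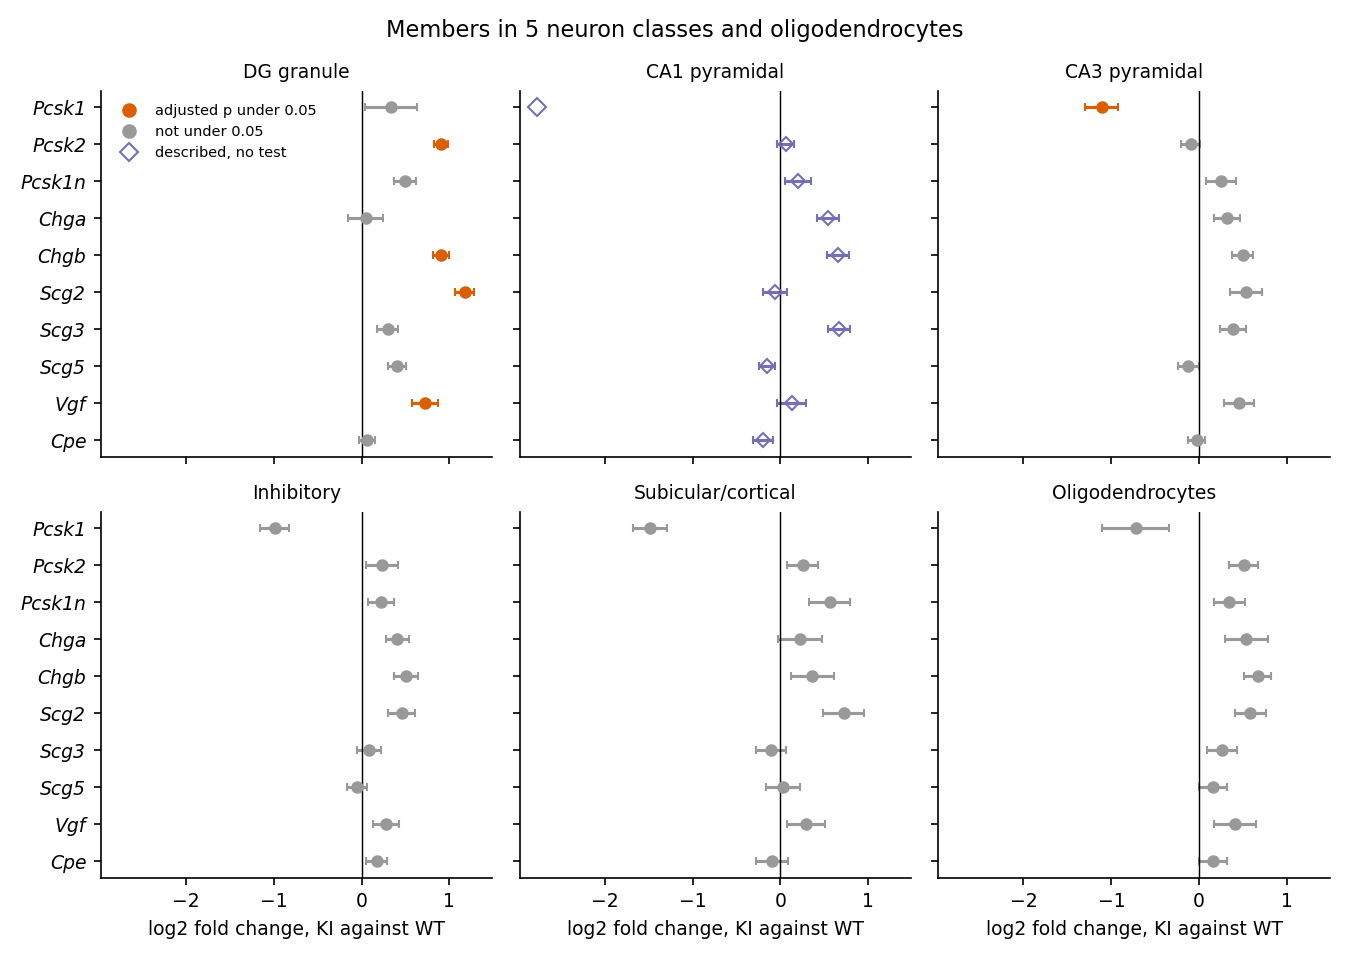
Fitted log2 fold change of each member, KI against WT, with its standard error, in 5 neuron classes and in oligodendrocytes (n = 2 libraries per genotype); filled orange points had an edgeR adjusted p under 0.05 and open diamonds are descriptions without a test. Pcsk2, Chgb, Scg2 and Vgf stand to the right in DG granule neurons, and Pcsk1 stands to the left in every class shown but DG granule neurons.

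The same members were also read in oligodendrocytes. There 9 of 10 members had a positive log2 fold change, with a median of 0.38 beside 0.00029 for all genes. Chgb was at 152 and 165 CPM in WT oligodendrocytes and 232 and 251 CPM in KI (0.67 ± 0.15, edgeR adjusted p = 0.0901). Scg2 was at 84.4 and 98.7 in WT against 139 and 120 CPM in KI (0.58, adjusted p = 0.174), and Pcsk2 at 188 and 180 CPM in WT against 218 and 287 in KI (0.51, adjusted p = 0.207). In both genes the KI libraries were above the WT libraries. By edgeR 0 of 10 members were called in oligodendrocytes, where 0.848% of all genes were, with 3 at an unadjusted p under 0.05 (14.9% of all genes) and 0 by DESeq2 (1.13% of genes with an adjusted p). The DG effect minus the oligodendrocyte effect was 0.45 for Pcsk2 (adjusted p = 0.237), 0.28 for Chgb (0.451), 0.64 for Scg2 (0.102) and 0.35 for Vgf (0.479), so that 0 of 10 members passed this edgeR test (3 had an unadjusted p under 0.05, as had 14.8% of all genes), added after the data had been seen, beside 2.54% of all genes.

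Taken per nucleus, Pcsk2 in DG granule neurons was far above oligodendrocytes of the same library. It was at 1.77 and 1.92 UMIs per DG nucleus in WT and 3.41 and 3.22 in KI, against 0.307, 0.299, 0.361 and 0.477 per oligodendrocyte. With the oligodendrocyte values taken off, the ratio of KI to WT was 1.88, against 1.80 before. For Chgb the same step moved it from 1.79 to 2.39, and for Scg2 from 2.17 to 3.81. No ratio could be had for Vgf, since WT replicate 2 had fewer Vgf UMIs per DG nucleus (0.0812) than per oligodendrocyte (0.0929). Microglia had 0.362 and 0.281 Chgb UMIs per nucleus in WT and 0.353 and 0.604 in KI, close to those of WT DG granule neurons (0.357 and 0.390). In the DG sums the summed level of the 7 astrocyte markers was lower beside the rise, at 942 and 901 in WT against 387 and 619 CPM in KI, with 0 of 7 at 0 in any library. Slc4a4, one of these markers, was also among the leading genes of the DG granule cluster. The 6 mossy cell markers were at 64.2 and 71.0 CPM in WT against 33.4 and 42.4 in KI. The 8 DG granule markers were at 4113 and 3990 in WT against 3273 and 3855 CPM in KI. The part of free RNA and of other cells in the DG result was not tested beyond these values.

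**Figure D4:**
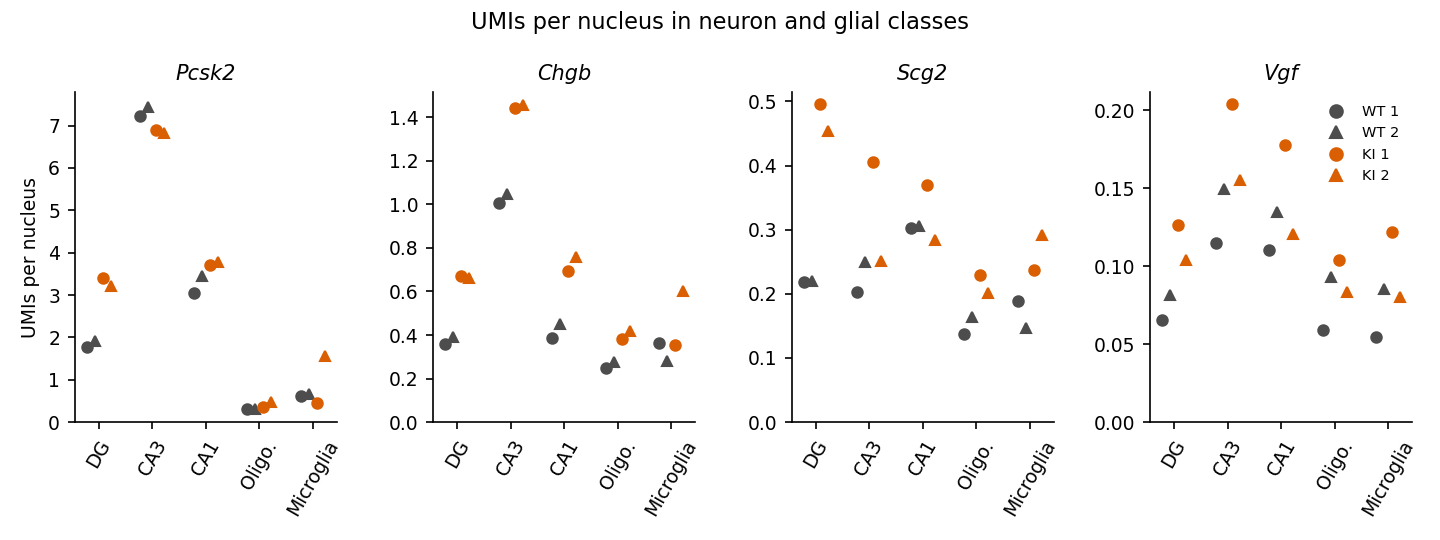
UMIs per nucleus of Pcsk2, Chgb, Scg2 and Vgf in DG granule, CA3 and CA1 neurons, oligodendrocytes and microglia; each point is 1 library, WT or KI. In DG granule neurons Pcsk2 lies at 1.77 to 1.92 in WT and 3.22 to 3.41 in KI, far above oligodendrocytes (0.299 to 0.477), whereas Vgf in DG granule neurons overlaps with oligodendrocytes.

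In CA1 pyramidal neurons, described without a test, Chgb, Scg3 and Chga had higher values in KI, opposite in direction to Pcsk1. Chgb was at 68.7 and 67.8 CPM in WT against 87.1 and 116 in KI (log2 fold change 0.66 ± 0.12). Scg3 was at 31.7 and 36.1 in WT against 51.1 and 49.8 CPM in KI (0.67 ± 0.13), and Chga at 21.2 and 21.1 CPM in WT against 27.1 and 31.0 in KI (0.55 ± 0.13). In these 3 genes both KI libraries were above both WT libraries. Pcsk2 (0.06), Scg2 (-0.06) and Vgf (0.13) had log2 fold changes no larger than their standard errors. Beside Pcsk1, 3 members were past the threshold of the fit, all higher, where 4.46% of all genes were higher, 2.73% lower and 7.19% in either direction, and nothing is read from that count, since the group was chosen in this comparison.

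In the other classes 0 members were called by edgeR, Pcsk1 over all nuclei aside. In inhibitory neurons 0.0186% of all genes were called by edgeR (3 genes, and 5 to 1232 with 1 library left out). There 4 members had an unadjusted p under 0.05, beside 14.6% of all genes, and 1 was called by DESeq2, beside 1.12% of the genes to which it gave an adjusted p. In subicular or cortical excitatory neurons 0% of genes were called by edgeR, 3 members had an unadjusted p under 0.05 (7.56% of all genes) and 1 was called by DESeq2 (0.08%). In astrocytes, microglia and OPC 0% of genes were called by edgeR, and Pcsk1 was too low to be tested. At an unadjusted p under 0.05 there were 3 members in astrocytes (10.2% of all genes), 2 in microglia (6.19%) and 3 in OPC (7.88%), and DESeq2 called 0 members in each (0.9%, 0.00488% and 0.0285% of genes). Over all nuclei, where 0.874% of genes were called, Chgb was at 88.1 and 85.3 in WT against 114 and 134 CPM in KI (log2 fold change 0.56, adjusted p = 0.0626 by edgeR and 0.00369 by DESeq2). There 5 members other than Pcsk1 had an unadjusted p under 0.05, beside 24.1% of all genes, and 1 was called by DESeq2, beside 9.62% of genes with an adjusted p. Over all nuclei DG granule neurons made up 28.3% and 26.4% of WT nuclei and 20.5% and 16.97% of KI nuclei. Chgb had a positive log2 fold change in each of 9 classes, CA1 (described without a test) included, from 0.36 in subicular or cortical excitatory neurons to 0.90 in DG granule neurons. Of the 8 classes given with a test, it passed in DG granule neurons.

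The effect of the genotype was then compared between neuron classes of the same libraries. In CA3 minus DG, 5 of 10 members were lower and 0 higher, beside 10.6% of all genes called. Pcsk1 differed by -1.46 ± 0.22 on the log2 scale (edgeR adjusted p = 0.000824) and Pcsk2 by -1.01 ± 0.098 (adjusted p = 3.15e-05). Scg2 (-0.64, adjusted p = 0.0164), Scg5 (-0.54, 0.00324) and Chgb (-0.41, 0.0192) also differed. Pcsk2 itself was at 902 and 793 in WT against 690 and 814 CPM in KI in CA3, with overlapping groups. In inhibitory neurons minus DG, 4 members were lower, beside 5.61% of all genes called: Pcsk1 (-1.28 ± 0.25, adjusted p = 0.0145), Scg2 (-0.73 ± 0.13, 0.0103), Pcsk2 (-0.69 ± 0.17, 0.0442) and Scg5 (-0.45 ± 0.11, 0.0479). Without WT replicate 1 or without WT replicate 2 the count was 0, and by library totals or gated nuclei it was 2. The 5 of CA3 minus DG became 3 without WT replicate 2 and 2 with gated nuclei. In CA1 minus DG, a description, Pcsk1 differed by -3.10, Scg2 by -1.25 ± 0.10 and Pcsk2 by -0.86 ± 0.093. Besides Pcsk1, 6 members were past the threshold there, 5 lower and 1 higher, where 13.5% of all genes were. Nothing is read from that count, since the group was chosen in the CA1 comparison. In CA3 minus oligodendrocytes, added after the data had been seen, 0 of 10 members passed (1 had an unadjusted p under 0.05, as had 11.6% of all genes), beside 0.834% of all genes, and Pcsk1 differed by -0.35 ± 0.36. These comparisons share the DG sums, or the oligodendrocyte sums, of the same libraries. The share of all genes called was kept for the main fits of these differences only. The member counts under other settings therefore stand without it and are not read further.

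**Figure D5:**
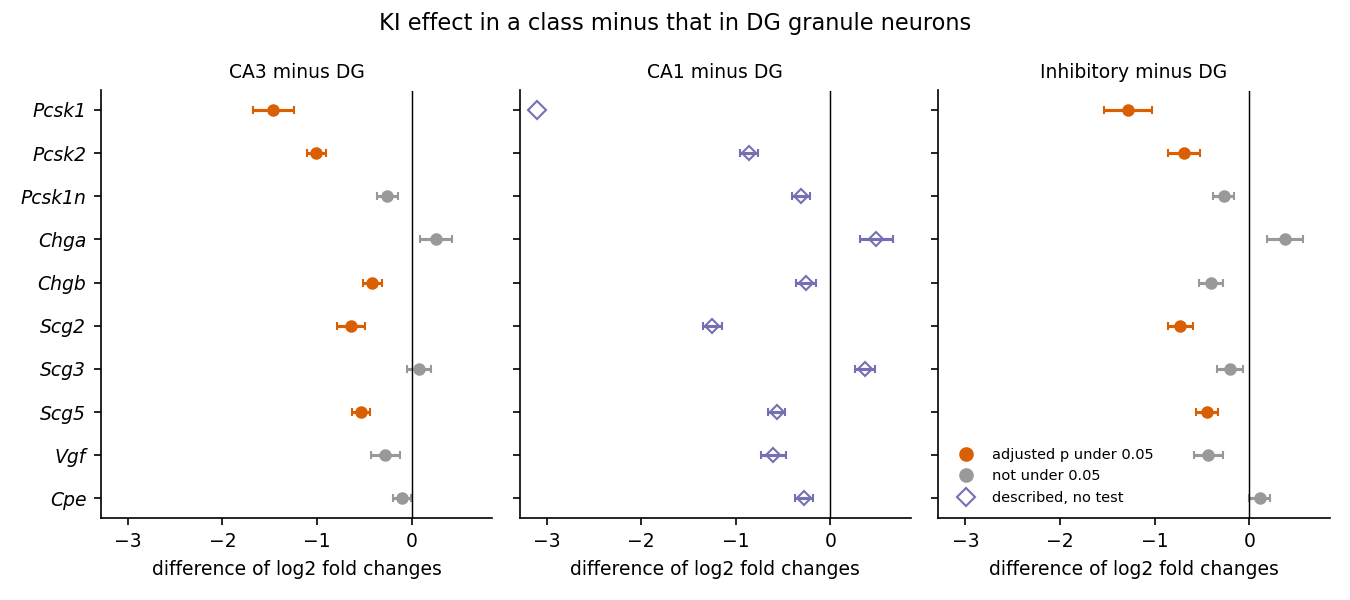
Difference of the KI effect between neuron classes for each member (log2, with standard error), for CA3, CA1 and inhibitory neurons, each minus DG granule neurons; filled orange points had an edgeR adjusted p under 0.05 and open diamonds are descriptions. Pcsk1, Pcsk2, Scg2 and Scg5 lie below 0 in all 3 panels, at -1.46, -1.01, -0.64 and -0.54 for CA3.

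The start regions of the members were searched for the cAMP response element, the site of CREB family factors that is well known from promoters of neuropeptide and granin genes. RefSeq promoters on GRCm38.p6 were held for 8 of 10 members, the table used here having none for Vgf and Cpe. In the 250 bases before the start, searched on both strands, the full palindrome TGACGTCA was in 3 of 8 members and in 1.55% of 32851 promoters. The shorter TGACG or its complement CGTCA, which the palindrome contains, was in 7 of 8 members and in 17.8% of all promoters. The 3 full matches are shown in the direction of the gene with the motif in capitals, at 78 to 71, 72 to 65 and 68 to 61 bases before the start. They lie at chr13:75089768-75089797 on the plus strand, chr2:132781559-132781588 on the plus strand and chr1:79440076-79440105 on the minus strand, and those of Chgb and Scg2 overlap an annotated GENCODE exon.
Pcsk1: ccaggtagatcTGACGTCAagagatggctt
Chgb: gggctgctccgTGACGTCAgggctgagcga
Scg2: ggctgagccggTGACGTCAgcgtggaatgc
In DG granule neurons Chgb and Scg2 rose and Pcsk1 did not pass the test. A match of letters is a description, not a bound site.

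Other genes of the pathway were followed in 4 lists. Of 9 genes of dense-core vesicle formation and release, 1 was higher in KI DG granule neurons, beside 4.8% of all genes: Ptprn, which encodes the vesicle membrane protein IA-2, at 196 and 200 CPM in WT against 239 and 274 in KI (log2 fold change 0.50, edgeR adjusted p = 0.0248). Of 3 genes that modify peptide ends, 1 was higher there: Pam, the enzyme that amidates peptides, at 219 and 205 in WT against 331 and 282 CPM in KI (0.67, adjusted p = 0.0247). Of 8 tested genes of other convertases and exopeptidases, 0 were called there by edgeR, with 1 at an unadjusted p under 0.05 (29.1% of all genes) and 0 by DESeq2. Per nucleus, Ptprn (0.815 and 0.925 UMIs in WT, 1.16 and 1.20 in KI) and Pam (0.908 and 0.946 in WT, 1.60 and 1.23 in KI) were above oligodendrocytes of the same library, at 0.238 to 0.289 and 0.350 to 0.424 UMIs. The median log2 fold change of these lists in DG granule neurons was 0.21 for vesicle formation, 0.32 for peptide ends and 0.27 for the other convertases, beside -0.001 for all genes.

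Of the prohormones, the substrates of the route, 18 were tested in DG granule neurons, with 5 higher and 2 lower in KI, beside 4.8% and 4.83% of all genes. Of the higher ones Penk, Bdnf, Npy and Vip were the 4 with the largest change, and Grp and the lower Cck and Pdyn are named outside that rule, after their values were seen. Penk and Vip here, and Npy in CA3 neurons, reached the mean CPM asked of a named gene only through their KI libraries. Their WT values were below it. Penk, the precursor of enkephalins, was at 4.22 and 3.82 CPM in WT against 32.7 and 32.3 in KI (log2 fold change 3.14 ± 0.16, edgeR adjusted p = 0.00105). Per DG nucleus it was at 0.0175 and 0.0176 UMIs in WT and 0.158 and 0.141 in KI, against 0.0131 and 0.00808, then 0.0680 and 0.0568 per oligodendrocyte. Bdnf, a neurotrophin, was at 59.6 and 56.7 in WT against 153 and 170 CPM in KI (1.60 ± 0.098, adjusted p = 0.00187). Per nucleus it was at 0.247 and 0.262 UMIs in WT and 0.739 and 0.742 in KI, far above oligodendrocytes (0.0404 to 0.101). Npy, the precursor of neuropeptide Y, passed the test (14.4 and 15.1 CPM in WT, 32.0 and 35.3 in KI, 1.32 ± 0.13, adjusted p = 0.00436), but its UMIs per DG nucleus (0.0598, 0.0696, 0.155 and 0.154, WT before KI) were close to those per oligodendrocyte (0.0611, 0.0687, 0.143 and 0.132). Vip, an interneuron peptide, also passed (7.54 and 9.10 CPM in WT, 15.8 and 12.5 in KI, 0.91, adjusted p = 0.0456), and per DG nucleus (0.0313, 0.0420, 0.0764 and 0.0546 UMIs) it was below oligodendrocytes (0.0320, 0.0493, 0.0741 and 0.0649) in every library but KI replicate 1. Cck, the precursor of cholecystokinin, was lower (93.2 and 98.8 CPM in WT, 45.8 and 59.9 in KI, -0.73 ± 0.13, adjusted p = 0.0239), with 0.387, 0.456, 0.222 and 0.262 UMIs per DG nucleus against 0.343, 0.343, 0.208 and 0.276 per oligodendrocyte. The values of Npy, Vip and Cck, like those of the member Vgf, are therefore not read as a change within DG granule neurons. The part of free RNA in them was not tested. In CA3 neurons Npy was also higher (8.48 and 8.29 CPM in WT, 21.4 and 19.96 CPM in KI, adjusted p = 0.0206), whereas Bdnf was lower (58.7 and 60.7 CPM in WT, 34.5 and 34.1 CPM in KI, log2 fold change -0.72, adjusted p = 0.0394), within 2 higher and 1 lower of 13 tested, beside 1.37% and 0.704% of all genes. Npy there was at 0.0680 and 0.0778 UMIs per nucleus in WT and 0.214 and 0.168 in KI, not far above the oligodendrocyte values. In oligodendrocytes Penk (8.02 and 4.86 CPM in WT, 41.0 and 34.1 CPM in KI, adjusted p = 0.00639) and Npy (37.4 and 41.3 CPM in WT, 86.3 and 79.4 CPM in KI, adjusted p = 0.0307) were higher as well. In inhibitory neurons 0 of 40 tested genes of the 4 lists were called by edgeR, beside 0.0186% of all genes, with 15 at an unadjusted p under 0.05, beside 14.6% of all genes, and 2 by DESeq2, beside 1.12% of genes with an adjusted p. In subicular or cortical excitatory neurons the call was 0 of 32, beside 0% of all genes, with 3 at an unadjusted p under 0.05 (7.56% of all genes) and 0 by DESeq2. Nothing particular to the lists is read from these counts. In CA1 neurons, again a description, Ptprn was at 323 and 339 CPM in WT against 185 and 224 in KI, opposite in direction to DG granule neurons. The log2 fold changes of the other genes named there were 0.57 for Cadps, -0.36 for Cadps2, 0.88 for Npy and -0.73 for Cck. In that class 8 of 35 genes of the lists were past the threshold, 4 higher and 4 lower, beside 7.19% of all genes in either direction.

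The genes whose pattern was most like that of Pcsk1 were Gnl3l, Rims4, Trpc7, Gramd2 and Afdn, with Pearson correlations of 0.80, 0.77, 0.76, 0.76 and 0.76. These were taken over 36 sums of class and library, which share libraries and depth, among 12697 genes, and are a description. The sums include those of CA1 by which the group was chosen, so a lower KI value there is partly built in. In CA1, Gnl3l was at 70.3 and 67.5 CPM in WT against 50.9 and 51.4 in KI. Trpc7 (7.69 and 9.01 in WT, 5.05 and 10.6 CPM in KI) and Gramd2 (6.67 and 6.33 in WT, 8.16 and 5.26 CPM in KI) overlapped there. Afdn was not lower in KI CA1, at 170 and 170 CPM in WT against 171 and 173 in KI. Rims4, which encodes a small protein of the presynaptic RIM family, was at 23.7 and 22.0 CPM in WT CA1 and 12.4 and 11.8 CPM in KI CA1. In inhibitory neurons it was at 47.3 and 64.8 in WT against 27.4 and 27.3 CPM in KI. Among the members, Scg5 (0.59) and Pcsk2 (0.49) were closest to Pcsk1 over these sums, and Pcsk1n (-0.59), Scg2 (-0.55) and Chgb (-0.51) were farthest.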

How the data were processed

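Nuclear RNA from the hippocampi of 4 mice was counted with a droplet 3′ method. The authors ran Cell Ranger 7.0.1, as the file headers state, and the submitters' processing notes name mm10. The deposited values are raw UMI counts per gene and nucleus barcode, not normalized. The study tested single nuclei, whereas here nuclei were not used as replicates: groups came from the titles, and each library is a separate mouse, so n = 2 per group. The members and gene lists were chosen with earlier results of these data known.

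A floor of 500 genes and a ceiling of 5% mitochondrial UMIs removed 345 barcodes, and a further 2663 barcodes (4.82%) above a doublet score of 0.25 were left out. Doublets were scored in each library against simulated doublets at an expected rate of 0.08. Nuclei were clustered with leidenalg 0.10.2 (Python 3.11.15) on 2000 variable genes, 30 principal components and 20 neighbours at a resolution of 0.5. A cluster took a class name when at least 3 of its markers were raised at least 2 times, and 19 of 29 clusters were named, so names can differ from those of the study. Gating each nucleus on its own markers named 38.7% of nuclei, and 95.6% of those named by both had the same class.

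Counts were summed per library over classes for which no library had fewer than 100 nuclei. The genotypes were compared by the quasi-likelihood test of edgeR 4.0.16 in R 4.3.3, after filtering low counts and TMM scaling, with Benjamini-Hochberg adjustment over all genes tested, at a threshold of 0.05. CPM values are counts over the class sum of the library. Between classes, the interaction of class and genotype was tested while each library had its own term. The fits were tested on simulated counts. DESeq2 1.42.0, other scalings, filters, class definitions and left-out libraries were tried as alternatives. Of the 4 pathway lists (42 genes), the genes named were those past the threshold in a tested neuron class with a mean of at least 10 CPM, up to 4 per list and class by size of change (3 further prohormones are named after their values were seen), and those similar to Pcsk1 were the 5 with the highest correlation of log2(CPM + 1) among genes with at least 10 CPM in at least 4 sums. For Penk and Vip in DG granule neurons and Npy in CA3 neurons, the WT values were under 10 CPM. Only the KI libraries brought them past the mean asked of a list gene. The 10 members were always named. Because Pcsk1 in CA1 chose the group, every CA1 value is a description with no p, which is stricter than the tests planned. The number of columns of per-sample values left unused was 0. Oligodendrocyte values and UMIs per nucleus of list genes, and UMIs taken off, are additions made after seeing the data.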

Additional observations from a re-analysis of the deposited data

Results flagged for a closer look

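Of the members, 5 genes gave 9 differences of the KI effect between neuron classes that passed a test of the difference itself (edgeR, class-by-genotype term). In CA3 pyramidal neurons minus DG granule neurons these were Pcsk1 (-1.46 on the log2 scale), Pcsk2 (-1.01), Scg2 (-0.64), Scg5 (-0.54) and Chgb (-0.41), beside 10.6% of all genes called. In inhibitory neurons minus DG granule neurons they were Pcsk1 (-1.28), Scg2 (-0.73), Pcsk2 (-0.69) and Scg5 (-0.45), beside 5.61% of all genes called. With gated nuclei the count was 2 in each comparison, and by library totals it was 2 in inhibitory neurons. Without WT replicate 1 or WT replicate 2, the count in inhibitory neurons was 0, and in CA3 it was 3 without WT replicate 2. Each was flagged because the change from WT to KI in one class was unlike that in the other. Several were differences of size between changes of the same sign: the log2 fold change was 0.50 in CA3 against 0.90 in DG for Chgb, 0.53 in CA3 and 0.46 in inhibitory neurons against 1.18 in DG for Scg2, and 0.23 in inhibitory neurons against 0.91 in DG for Pcsk2. Pcsk1 in DG granule neurons was close to the level in glia, and the part of free RNA in its differences was not tested.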

How the results depend on the processing

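With 2 mice per genotype, the counts of members called moved with the settings, and of 232 fold changes refitted 2 reversed. Pcsk1 in DG granule neurons, 0.34, was -0.36 with gated nuclei and ranged from -0.19 (without KI replicate 1) to 0.70 (without KI replicate 2, adjusted p = 0.000606, the 1 of 13 settings under 0.05) with 1 library left out. Pcsk2 and Scg2 in DG granule neurons had an adjusted p under 0.05 in all 13 settings. The 4 members called in DG granule neurons became 2 to 9 with 1 library left out, the 1 in CA3 became 0 to 6, the 3 in CA1 0 to 6, and the 5, 6 and 4 in CA3, CA1 and inhibitory neurons minus DG 3 to 6, 2 to 8 and 0 to 6. The counts of 0 became 0 to 4 over all nuclei and in oligodendrocytes, 0 to 3 in microglia, 0 to 2 in astrocytes and inhibitory neurons and 0 to 1 in OPC. Without the filter on low counts the count was 1 over all nuclei, in oligodendrocytes and in subicular or cortical neurons, and 2 in CA3 and inhibitory neurons. DESeq2 called 1 over all nuclei and in inhibitory and subicular or cortical neurons. Gated nuclei gave 1 in CA1, 0 in CA3 and 2 in each of the 3 differences from DG. The counts in CA1 and in CA1 minus DG are descriptions, from which nothing is read. For the differences from DG, the share of all genes called was kept for the main fits only. Library totals gave 1 in CA1 and 2 in inhibitory minus DG, and a resolution of 1.0 gave 1 in CA1. With 2 mice per genotype, the correlation of deviations (-0.21 to 0.31) cannot settle whether replicate numbers paired the mice. A replicate block gave 1 over all nuclei, 2 in CA3, 1 in inhibitory and 1 in subicular or cortical neurons. All genes called in DG granule neurons, 1573, became 270 to 8233 with 1 library left out, 2406 with the block and 3230 without the filter; in CA3, 315 became 219 to 5043, 1147, 1822 and, gated, 51; in CA1, 1157 became 311 to 6988, and 2531 with the block; over all nuclei, 190 became 57 to 7395, 704, 748 and, by DESeq2, 1827; in inhibitory neurons, 3 became 5 to 1232, 160, 1000 and, gated, 237; in oligodendrocytes, 110 became 124 to 2978, 471, 856 and, gated, 14. The 0 of astrocytes, microglia, OPC and subicular or cortical neurons became up to 528, 1627, 937 and 4 with 1 library left out. Scaling by library totals took the share of higher calls from 62.1 to 48.7% in CA1 and from 66.0 to 50.8% in CA3. Pcsk1 in CA1, 25.6 CPM in WT and 3.52 CPM in KI, was 42.5 and 8.03 CPM with gated nuclei and 22.9 and 2.55 CPM at a resolution of 1.0, and the KI value was 2.90 CPM with doublets kept. The share of CA1 nuclei with a Pcsk1 UMI, 9.13% in WT and 2.24% in KI, was 3.91% and 0.625% thinned and 14.8% and 4.41% gated. Without the clusters that varied between libraries, chosen after seeing the data, subicular or cortical Pcsk1 was -1.50 (adjusted p = 0.0628). The cause of these changes was not tested.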

Other observations

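Unnamed clusters also held Pcsk1, and those given here were chosen after their values were seen. The cluster led by Abi3bp and Dcn had 45.4 and 40.5 CPM in WT against 7.66 and 7.43 in KI. The cluster led by Npsr1 and Tshz2 had 55.1 and 75.5 in WT against 25.2 and 26.6 CPM in KI, and the cluster led by Fn1 and Klhl1 had 42.9 and 41.4 CPM in WT against 10.6 and 8.68 in KI. In all 3 clusters both KI libraries were below both WT libraries. Another unnamed cluster, led by Cpa6 and Lef1, went the other way in its 3 libraries, with 27.5 CPM in WT replicate 2 and 38.9 and 44.5 CPM in KI, from 18 to 26 UMIs each.

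Within inhibitory neurons Vip interneurons had Pcsk1 at 67.0 and 54.8 in WT against 39.0 and 46.7 CPM in KI. Sst interneurons overlapped with them in WT at 36.0 and 60.2 CPM, and had 14.8 and 26.8 CPM in KI. Cnr1 interneurons had 23.0 and 23.9 CPM in WT against 12.1 and 13.8 in KI, and Lamp5 interneurons had 14.0 and 12.1 in WT against 9.04 and 6.53 CPM in KI. In each of these 4 subclasses both KI libraries were below both WT libraries. These sums rest on 8 to 75 Pcsk1 UMIs per library and were not tested. The inhibitory nuclei of no named subclass had 27.6 and 15.3 CPM in WT against 10.3 and 6.76 in KI.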
